A study of Mus musculus with 19 samples.

Results

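The transcripts of the mouse mitochondrial genome were followed through hippocampal RNA-seq after seizures and after neuronal loss of EZH2. They were taken as every gene whose symbol in the authors' annotation begins with mt-, which gave 19 gene IDs of 55416 in the count table. These were 13 messenger RNAs, 2 ribosomal RNAs and the 4 transfer RNAs mt-Tl1, mt-Tm, mt-Tn and mt-Ts1. A further 18 transfer RNA genes of the same genome had IDs in the count table but no symbol in that annotation, and all had 0 reads in every library. The 13 messenger and 2 ribosomal RNAs had enough reads to be tested, and the 4 transfer RNAs did not.

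Hippocampi, which the design text calls whole and the tissue label gives as R. Hippocampus, were taken 4 days after status epilepticus, a prolonged seizure state induced with kainate, an agonist of glutamate receptors, given repeatedly in low doses, or 4 days after saline. The mice were of the C57BL6 strain, and their age is not given in the labels. EZH2nHom mice were EZH2(-/-);Syn1Cre(+/-): floxed EZH2 alleles, the histone methyltransferase of Polycomb repressive complex 2, were deleted by a Cre that the Synapsin1 promoter drives in neurons. WT mice were EZH2(+/+);Syn1Cre(+/-), so every animal carried the Cre. The groups were EZH2nHom kainate (4 libraries), EZH2nHom saline (5), WT kainate (5) and WT saline (5). Glia and other non-neuronal cells of EZH2nHom mice keep EZH2.

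The mitochondrial genome is a small circular DNA present in many copies per cell. Its messenger RNAs encode core subunits of the respiratory chain: the Nd genes belong to complex I, Cytb to complex III, the Co genes to complex IV and the Atp genes to the ATP synthase. Its ribosomal and transfer RNAs serve the mitochondrion's own protein synthesis, while all other mitochondrial proteins are encoded in the nucleus and imported. Each DNA strand is transcribed as a long precursor that is cut at the transfer RNAs, and mt-Nd6 is the messenger RNA of the light strand. Neurons depend on these enzymes for the ATP that restores ion gradients after firing.

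Several of these genes have nuclear copies, stretches of mitochondrial DNA carried into the chromosomes, and the reads of the pair are split between 2 gene IDs. Sequences were read from GENCODE M21 transcripts (build GRCm38), since no genome of the authors' build, mm39, was used here. The pairs are shown because a read from inside a shared stretch cannot be placed by its letters. The gene model Gm28661 on chromosome 1 matched mt-Co2 in all 681 aligned bases, and the stretches below are mt-Co2 at chrM:7014-7133 on the plus strand and Gm28661 at chr1:24615445-24615564 on the minus strand.

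mt-Co2: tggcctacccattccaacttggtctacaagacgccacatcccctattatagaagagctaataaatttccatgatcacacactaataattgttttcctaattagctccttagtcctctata

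Gm28661: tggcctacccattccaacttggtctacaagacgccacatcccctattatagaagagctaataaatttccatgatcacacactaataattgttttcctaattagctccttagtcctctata

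Gm10925 on chromosome 1 likewise matched mt-Atp6 in 678 of 678 bases, and the stretches are mt-Atp6 at chrM:7928-8047 on the plus strand and Gm10925 at chr1:24614531-24614650 on the minus strand.

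mt-Atp6: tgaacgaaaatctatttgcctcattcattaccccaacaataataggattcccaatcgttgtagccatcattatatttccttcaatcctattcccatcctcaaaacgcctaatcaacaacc

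Gm10925: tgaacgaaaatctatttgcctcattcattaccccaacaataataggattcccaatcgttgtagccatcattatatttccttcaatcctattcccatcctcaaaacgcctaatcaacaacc

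Gm28438 differed from mt-Nd3 by 1 substitution in 345 bases, T3C counted from the 5′ end of the coding sequence, with the mitochondrial base given first. It stands in capitals in mt-Nd3 at chrM:9459-9578 on the plus strand and in Gm28438 at chr1:24613000-24613119 on the minus strand.

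mt-Nd3: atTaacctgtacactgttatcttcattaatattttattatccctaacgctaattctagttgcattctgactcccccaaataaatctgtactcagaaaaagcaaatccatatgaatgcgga

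Gm28438: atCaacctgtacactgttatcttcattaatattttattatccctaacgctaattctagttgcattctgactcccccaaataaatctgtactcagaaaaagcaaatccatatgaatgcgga

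By contrast, mt-Nd1 shared no run of 50 bases with any other annotated transcript. The stretch shown is its first 120 bases, at chrM:2751-2870 on the plus strand.

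mt-Nd1: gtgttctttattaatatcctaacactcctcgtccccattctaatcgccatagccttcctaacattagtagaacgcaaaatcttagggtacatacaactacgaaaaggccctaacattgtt

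Over the 13 messenger RNAs, the share of 50-base words that also occurred in another annotated transcript was 100% for mt-Co2, 99.9% for mt-Co3, 99.5% for mt-Atp6, 98.8% for mt-Nd4l and 98.0% for mt-Nd3. It was 62.2% for mt-Nd4 and 51.1% for mt-Co1, 8.2% for mt-Nd2 and 7.6% for mt-Nd5, and 0.0% for mt-Nd1, mt-Cytb, mt-Atp8 and mt-Nd6. A gene model that shared at least 100 such words with 1 messenger RNA was taken as its copy. By that rule 7 messenger RNAs had 9 copies, Gm28661, Gm13341, Gm10925, Gm28437, Gm28438, Gm10222, Gm28439, Gm29216 and Gm13340, all on chromosomes 1 and 2. Gm28439, which matches mt-Nd4, had 0 reads in every library. Each comparison below is therefore given in 2 forms, as counted and with the reads of the copies added to their mitochondrial gene, and the second form was chosen after seeing the data. Levels are in CPM, read counts scaled to library size with TMM factors. Changes are log2 fold changes ± SE from edgeR's quasi-likelihood test, with p-values adjusted by Benjamini-Hochberg over all 19234 genes tested, and the threshold was an adjusted p of 0.05.

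Total reads ran from 24496685 to 43948317 per library. All 11 hippocampal neuron markers and all 14 general neuron markers had reads. Ezh2 averaged 17.5 ± 2.39 CPM in EZH2nHom kainate and 13.6 ± 1.42 CPM in EZH2nHom saline, against 15.2 ± 4.53 CPM in WT kainate and 11.2 ± 1.17 CPM in WT saline (SD). It did not pass between genotypes after kainate (0.21 ± 0.17, adjusted p = 0.473) or saline (0.27 ± 0.16, adjusted p = 0.288). A count over the whole gene in whole tissue does not check a neuronal deletion, so the genotypes rest on the labels. The date-like sample code prefixes of the 2 genotypes share 0 values, so genotype and whatever those prefixes mark cannot be told apart. EZH2nHom kainate and EZH2nHom saline also share 0 prefixes, while the WT groups share some. Treatment in EZH2nHom mice, and the difference of the kainate responses, therefore cannot be told apart from what the prefixes mark either. The share of small structural RNA reads also moved with genotype and treatment. It ran from 0.12 to 0.687% in EZH2nHom kainate, from 0.155 to 0.682% in EZH2nHom saline, from 0.0488 to 0.183% in WT kainate and from 0.0384 to 0.0652% in WT saline, and its part in the results was tested only as a covariate.

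Mitochondrial messenger RNAs made up 2.77 ± 0.496% of all reads in EZH2nHom kainate and 3.7 ± 0.524% in EZH2nHom saline, against 2.44 ± 0.157% in WT kainate and 2.73 ± 0.121% in WT saline (SD). With the copies added, the shares were 4.45 ± 0.691% in EZH2nHom kainate, 5.89 ± 0.848% in EZH2nHom saline, 3.85 ± 0.285% in WT kainate and 4.34 ± 0.147% in WT saline. The 5 EZH2nHom saline libraries, at 3.14 to 4.24% as counted, lay above all 10 WT libraries, whose highest value was 2.84%. The EZH2nHom kainate libraries, at 3.21, 3.17, 2.44 and 2.25%, overlapped both the EZH2nHom saline and the WT kainate libraries. The ribosomal RNAs, which the library kit was meant to remove, took 4.41 ± 0.272% of reads in EZH2nHom kainate, 4.54 ± 0.625% in EZH2nHom saline, 5.8 ± 0.883% in WT kainate and 6.66 ± 0.479% in WT saline. In whole tissue, fewer cells rich in mitochondria and less of this RNA per cell cannot be told apart.

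**Figure D1:**
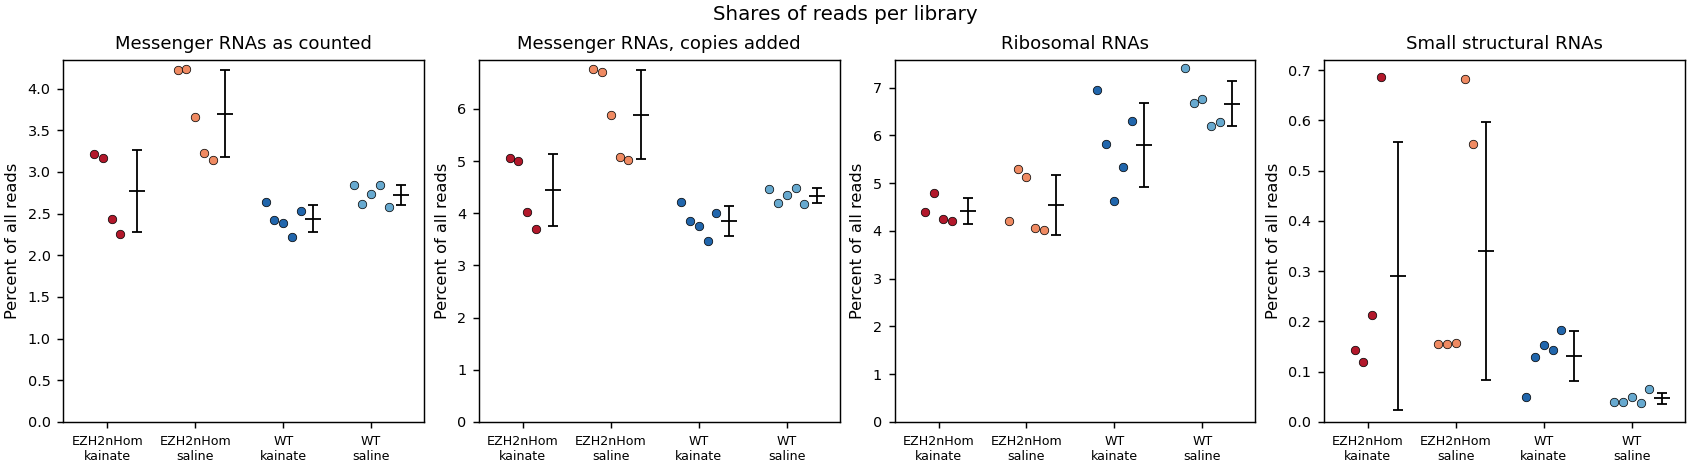
Percent of all reads in each library (points) taken by the mitochondrial messenger RNAs as counted, the same with nuclear copies added, the mitochondrial ribosomal RNAs and 14 small structural RNAs, with the mean ± SD to the right of each group (4 EZH2nHom kainate libraries, 5 in each other group). The EZH2nHom saline libraries lie at 3.14 to 4.24% for messenger RNAs as counted, above all WT libraries.

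Levels of different genes were compared per kilobase of transcript. With copies added, the complex IV genes and mt-Atp6 were the 4 highest messenger RNAs in every group. In EZH2nHom saline, mt-Co1 had 17700 ± 2740 CPM per kb, mt-Co3 13200 ± 2070, mt-Co2 11300 ± 1670 and mt-Atp6 6450 ± 1070 CPM per kb. In WT saline, mt-Co3 had 11000 ± 512 and mt-Co1 10500 ± 530 CPM per kb. They were followed by mt-Co2 at 6740 ± 215 and mt-Atp6 at 3790 ± 122 CPM per kb (SD, n = 5 in both groups). The levels of mt-Co3 and mt-Co1 come from the same libraries, so these SD do not measure their difference, which was not tested. The lower end in EZH2nHom saline was mt-Nd5 at 440 ± 31.1, mt-Nd4l at 284 ± 39.1 and mt-Nd6 at 111 ± 10.3 CPM per kb. In WT saline these were at 338 ± 50.3, 262 ± 25.6 and 105 ± 94.9 CPM per kb. As counted, mt-Co2 had 23.5 ± 19 CPM per kb in EZH2nHom saline and 184 ± 83 CPM per kb in WT saline. That made it the lowest messenger RNA in EZH2nHom saline, while mt-Nd4l and mt-Nd6 lay below it in WT saline.

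After kainate in EZH2nHom mice, the mitochondrial messenger RNAs were lower than after saline. Treatment cannot be told apart here from whatever the sample code prefixes mark. As counted, 6 of the 15 tested transcripts passed as lower and 0 as higher, where 11.8% of all genes tested were lower and 14.3% higher. With copies added, 11 of the 13 messenger RNAs were lower, all 13 log2 changes were negative and their median was -0.45, against -0.02 over all genes. In that fit 26.1% of genes passed in either direction. The 2 that did not pass were mt-Nd5 (-0.22 ± 0.19) and mt-Nd6 (-0.29 ± 0.47), while the ribosomal RNAs mt-Rnr1 (0.08 ± 0.15) and mt-Rnr2 (-0.12 ± 0.12) did not pass either.

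Among the complex I genes, mt-Nd1, which encodes a membrane subunit, had 2989, 4203, 2498 and 2540 CPM in the 4 EZH2nHom kainate libraries, against 5412, 5302, 4442, 4048 and 4197 CPM in EZH2nHom saline. Replicate 2 of the kainate group reached into the saline range, and the other three lay below it (-0.61 ± 0.13, adjusted p = 0.00234). The level of mt-Nd2, also a membrane subunit, was 816.2, 796, 630.6 and 758.9 CPM in EZH2nHom kainate, against 1197, 1267, 984.4, 1063 and 1058 CPM in EZH2nHom saline. These groups did not overlap (-0.57 ± 0.13, adjusted p = 0.00262). mt-Nd4 had 2144, 1362, 1037 and 1325 CPM in EZH2nHom kainate and 2302, 2448, 1846, 1971 and 1881 CPM in EZH2nHom saline, with replicate 1 of the kainate group inside the saline range (-0.51 ± 0.17, adjusted p = 0.0355). For mt-Nd3 and mt-Nd4l the change appeared once the copies were added: mt-Nd3 was at -0.42 ± 0.11 (adjusted p = 0.00817) with copies, against -0.02 ± 0.17 as counted, and mt-Nd4l at -0.47 ± 0.12 (adjusted p = 0.00841), against 0.42 ± 0.33 as counted.

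The complex III gene mt-Cytb, cytochrome b, had 3018, 2791, 2466 and 2567 CPM in EZH2nHom kainate, against 4649, 4703, 3842, 3590 and 3771 CPM in EZH2nHom saline. The highest kainate library lay below the lowest saline library, and the change was -0.60 ± 0.10 (adjusted p = 0.000319). Of the complex IV genes, mt-Co1, the catalytic subunit, had 18430, 22250, 15820 and 15060 CPM in EZH2nHom kainate and 30020, 29250, 23970, 21800 and 22220 CPM in EZH2nHom saline (-0.51 ± 0.12, adjusted p = 0.00421). Only replicate 2 of the kainate group reached the saline range. With copies added, mt-Co2, which takes electrons from cytochrome c, was at 5549, 6867, 5106 and 5084 CPM in EZH2nHom kainate and at 9229, 8571, 7467, 6528 and 6847 CPM in EZH2nHom saline (-0.45 ± 0.11, adjusted p = 0.00611). Counted alone it did not pass (0.82 ± 0.46). mt-Co3 was at -0.39 ± 0.11 with its copy (adjusted p = 0.0112), and at 0.63 ± 0.34 alone, which did not pass.

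Of the ATP synthase genes, mt-Atp8 passed as counted (-0.41 ± 0.15, adjusted p = 0.0481), with 305.1, 383.3, 256.4 and 383.6 CPM in EZH2nHom kainate and 551.4, 569.6, 379.6, 356.6 and 349.6 CPM in EZH2nHom saline. Its groups overlapped. mt-Atp6, the proton channel subunit, was at -0.44 ± 0.12 with its copy (adjusted p = 0.0129) and at 0.11 ± 0.15 alone, which did not pass. The calls of mt-Atp8 and mt-Nd4 are the fragile ones as counted. mt-Atp8 had an adjusted p of 0.209 and mt-Nd4 of 0.122 when only the 2 groups compared were fitted. Each was also lost without some single libraries: mt-Atp8 without replicate 1 or 3 of EZH2nHom kainate or 1 or 2 of EZH2nHom saline, and mt-Nd4 without replicate 2, 3 or 4 of EZH2nHom kainate or 1 or 2 of EZH2nHom saline. When only the groups compared were fitted, 5 of the 13 messenger RNAs with copies added were lower in place of 11.

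**Figure D2:**
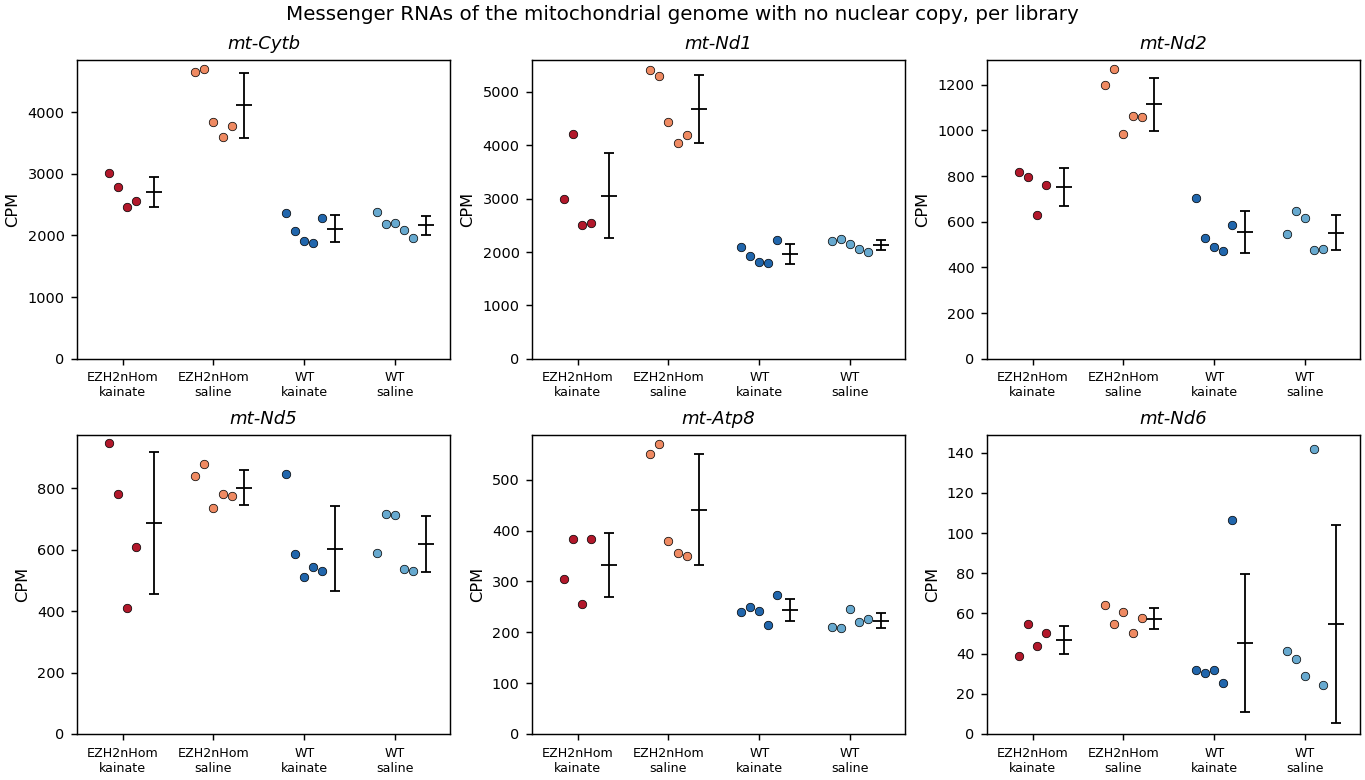
CPM per library (points) and mean ± SD (to the right of each group) of the 6 messenger RNAs with no nuclear copy counted, in EZH2nHom kainate (4 libraries), EZH2nHom saline, WT kainate and WT saline (5 each). For mt-Cytb the EZH2nHom kainate libraries (2466 to 3018 CPM) lie below the EZH2nHom saline ones (3590 to 4703 CPM) and above the WT ones, and for mt-Nd6 1 library in each WT group stands far above the others.

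Markers of several cell types moved in the same comparison. General neuron markers were lower for 5 of 14 and higher for 0, with a median of -0.23, and their summed level ran from 5090 to 6570 CPM in EZH2nHom kainate and from 7460 to 8120 CPM in EZH2nHom saline. The hippocampal neuron markers were lower for 4 of 11, with a median of -0.58 and a summed level of 612 to 1190 CPM in EZH2nHom kainate and 1050 to 1260 CPM in EZH2nHom saline. Oligodendrocyte markers were lower for 5 of 10 (3870 to 6680 CPM in EZH2nHom kainate, 6690 to 10700 CPM in EZH2nHom saline). Microglial markers were higher for 10 of 11 (1400 to 2710 CPM in EZH2nHom kainate, 366 to 413 CPM in EZH2nHom saline) and astrocyte markers for 7 of 10. Leukocyte markers were higher for 5 of 7 (a median summed level of 127 CPM in EZH2nHom kainate and 14.5 CPM in EZH2nHom saline). Choroid plexus markers passed for 0 of 12, with all 12 changes negative, a median of -2.9 and a summed level of 22.5 to 738 CPM in EZH2nHom kainate and 45 to 3950 CPM in EZH2nHom saline. None of the markers in these lists was at 0, and the part that changed cell make-up has in the lower mitochondrial levels was not tested.

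After kainate in WT mice, no mitochondrial transcript passed the test. Of the 15 transcripts, 0 were higher and 0 lower, where 12% of all genes tested passed, 9.47% as higher and 2.57% as lower. DESeq2 also called 0. In edgeR 0 of the 15 had an unadjusted p under 0.05, where 4741 of all 19234 genes tested did. The smallest adjusted p was 0.484, for mt-Rnr2. As counted, the 13 messenger RNAs had a median of -0.10, and with copies added one of -0.07, with SE of 0.10 to 0.18 in that form for all but mt-Nd6 (0.44).

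mt-Cytb had 2370, 2081, 1911, 1885 and 2287 CPM in WT kainate, against 2383, 2192, 2206, 2087 and 1960 CPM in WT saline, and the groups overlapped (-0.04 ± 0.10). mt-Nd1 had 2087, 1927, 1815, 1788 and 2221 CPM in WT kainate and 2202, 2240, 2149, 2065 and 1993 CPM in WT saline (-0.11 ± 0.12). mt-Co2 with copies had 4472, 4282, 3928, 3887 and 4976 CPM in WT kainate and 4862, 4555, 4476, 4571 and 4589 CPM in WT saline (-0.10 ± 0.11). The sign of the median depended on the fit: with copies added and the structural RNA share as a covariate it was 0.1, with 10 of 13 positive. The WT animals had responded to kainate in other genes: microglial markers were higher for 11 of 11 and astrocyte markers for 4 of 10, while general neuron markers were lower for 1 of 14 and hippocampal neuron markers for 3 of 11. Oligodendrocyte markers were higher for 1 of 10 and lower for 0. Red blood cell markers were higher for 6 of 7 (median 1.45) and leukocyte markers for 4 of 7.

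The difference between the kainate responses of the genotypes was tested directly and did not pass for any transcript. For the 15 transcripts edgeR called 0, as for all genes (0% called), and DESeq2 called 0 of the 15 and 12 genes in all. Of the 15, 5 had an unadjusted p under 0.05, as did 1685 of 19234 genes. mt-Cytb had the smallest p, 0.000743, with a difference of -0.56 ± 0.14 (EZH2nHom minus WT, adjusted p = 0.418). It was followed by mt-Nd2 (-0.58 ± 0.17, adjusted p = 0.439), mt-Nd1 (-0.50 ± 0.18, adjusted p = 0.478) and mt-Atp8 (-0.54 ± 0.20, adjusted p = 0.498). With copies added the 13 differences were all negative, with a median of -0.39, and 8 had an unadjusted p under 0.05. A fall after kainate in EZH2nHom mice only is therefore not shown by these libraries.

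**Figure D3:**
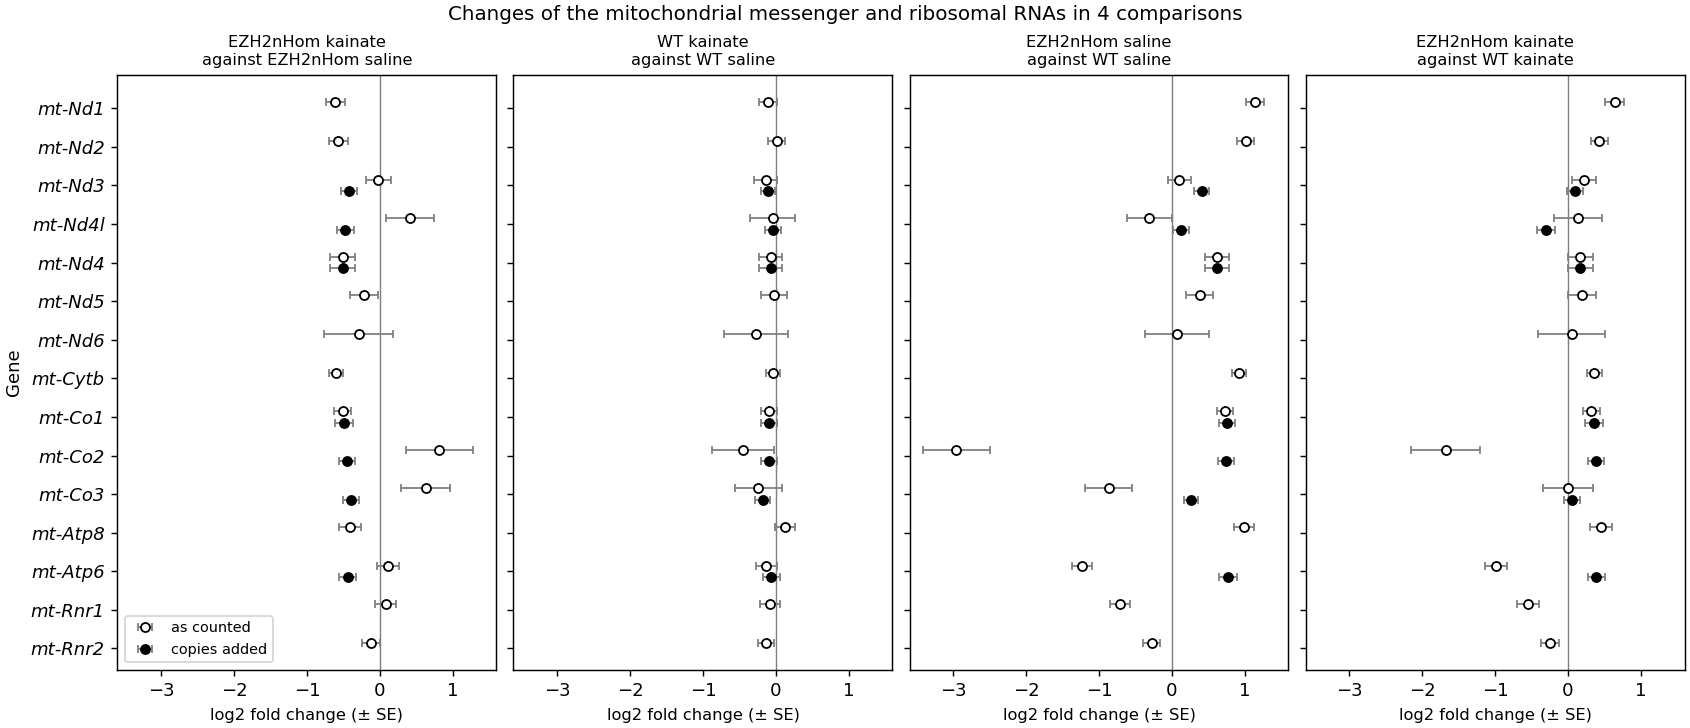
Log2 fold changes ± SE of the 13 messenger and 2 ribosomal RNAs in 4 comparisons, as counted (open circles) and, for the 7 genes with a nuclear copy, with the copies' reads added (filled circles). In EZH2nHom kainate against EZH2nHom saline all filled circles lie between -0.51 and -0.39, and in EZH2nHom saline against WT saline mt-Co2 moves to 0.74 with copies, against -2.96 as counted.

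After saline, EZH2nHom libraries had higher levels of mitochondrial messenger RNA than WT libraries. Genotype cannot be told apart here from whatever the sample code prefixes mark. As counted, 6 of the 15 transcripts passed as higher and 3 as lower, where 8.33% of all genes tested were higher and 5.16% lower. With copies added, 9 of the 13 messenger RNAs were higher, 0 were lower, all 13 changes were positive and the median was 0.74, against 0.02 over all genes. In that fit 13.5% of genes passed in either direction. The 4 that did not pass in that form were mt-Co3 (0.26 ± 0.10), mt-Nd4l (0.12 ± 0.11), mt-Nd5 (0.38 ± 0.18) and mt-Nd6 (0.07 ± 0.44).

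In complex I, mt-Nd1 in the EZH2nHom saline libraries, at 4048 to 5412 CPM, lay above all WT saline libraries, at 1993 to 2240 CPM (1.14 ± 0.13, adjusted p = 1.13e-05). mt-Nd2, at 984.4 to 1267 CPM in EZH2nHom saline and 475 to 646.6 CPM in WT saline, did not overlap either (1.01 ± 0.12, adjusted p = 1.86e-05). mt-Nd4, at 1846 to 2448 CPM in EZH2nHom saline and 1177 to 1514 CPM in WT saline, was higher as well (0.62 ± 0.16, adjusted p = 0.0154). That call was lost without replicate 1, 4 or 5 of WT saline (adjusted p of 0.0568 to 0.0747). mt-Nd3 passed with its copy (0.41 ± 0.10, adjusted p = 0.0122) and not alone (0.10 ± 0.16).

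mt-Cytb had 3590 to 4703 CPM in EZH2nHom saline and 1960 to 2383 CPM in WT saline (0.92 ± 0.10, adjusted p = 5.87e-06). mt-Co1 had 21800 to 30020 CPM in EZH2nHom saline and 14520 to 16250 CPM in WT saline (0.73 ± 0.11, adjusted p = 0.000289). mt-Atp8 had 349.6 to 569.6 CPM in EZH2nHom saline and 208.5 to 246.6 CPM in WT saline (0.99 ± 0.14, adjusted p = 0.000132). None of these 3 overlapped between the groups. Nor did mt-Nd5, which was not called (adjusted p = 0.169). The share of all genes tested that did not overlap is not given here.

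For mt-Co2 and mt-Atp6 the direction depended on where the shared reads were counted. As counted, mt-Co2 had 12.08, 12.17, 38.4, 4.411 and 13.43 CPM in EZH2nHom saline, against 111.8, 64.81, 82.38, 194.8 and 174.1 CPM in WT saline (-2.96 ± 0.46, adjusted p = 0.000341). Its copy Gm28661 had 9217, 8558, 7428, 6523 and 6834 CPM in EZH2nHom saline and 4750, 4490, 4394, 4376 and 4415 CPM in WT saline. Added together, mt-Co2 was higher in EZH2nHom saline (0.74 ± 0.11, adjusted p = 0.000134), with the groups apart. mt-Atp6 alone was lower, at 425.6 to 684.7 CPM in EZH2nHom saline and 1095 to 1626 CPM in WT saline (-1.23 ± 0.14, adjusted p = 1.61e-05), and with Gm10925 it was higher (0.77 ± 0.12, adjusted p = 0.000231).

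**Figure D4:**
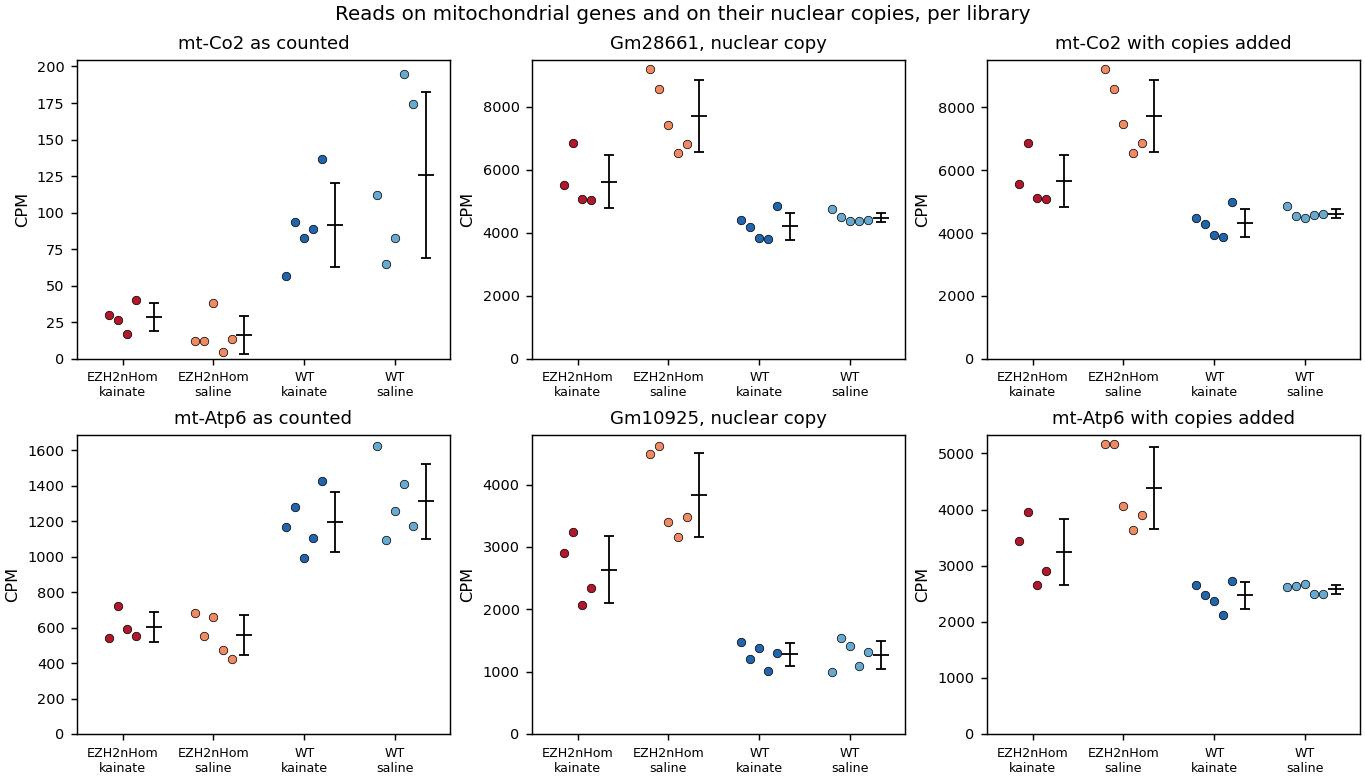
CPM per library (points) and mean ± SD (to the right of each group) for mt-Co2 and mt-Atp6 as counted, for their nuclear copies Gm28661 and Gm10925, and for each gene with all its copies added. The EZH2nHom libraries lie below the WT ones in the left panels (17.16 to 40.43 CPM for mt-Co2 in EZH2nHom kainate, 56.37 to 136.6 CPM in WT kainate), and the saline groups lie the other way round in the right panels.

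The split of reads between gene and copy separated the genotypes for mt-Atp6, mt-Co2 and mt-Co1, and not for mt-Nd3 or mt-Nd4l. For mt-Co3 it separated them after saline only. Of the reads on mt-Atp6 and Gm10925 together, the copy held 84.3, 81.7, 77.6 and 80.9% in EZH2nHom kainate and 86.8, 89.3, 83.8, 87 and 89.1% in EZH2nHom saline. It held 55.9, 48.4, 58.3, 47.9 and 47.5% in WT kainate and 37.9, 58.4, 52.9, 43.4 and 52.8% in WT saline, so no EZH2nHom library came near a WT one. For mt-Co2, the copies held 99.2 to 99.7% in EZH2nHom kainate, 99.5 to 99.9% in EZH2nHom saline, 97.3 to 98.7% in WT kainate and 95.7 to 98.6% in WT saline. For mt-Co1 they held 6.73 to 10.3% in EZH2nHom kainate and 5.87 to 7.8% in EZH2nHom saline. In WT kainate they held 5.11 to 5.52% of the mt-Co1 reads and in WT saline 5.09 to 5.67%. For mt-Co3 the genotypes overlapped after kainate, with 91.7 to 94% in EZH2nHom kainate and 90.5 to 95.1% in WT kainate. After saline they did not, with 94.1 to 98.7% in EZH2nHom saline and 90.8 to 92.6% in WT saline. For mt-Nd4l, whose copy Gm10222 has the same 294 bases, the copy held 38.9 to 82% in EZH2nHom kainate, 71.3 to 90.8% in EZH2nHom saline, 67.2 to 77.3% in WT kainate and 57.3 to 81.2% in WT saline. For mt-Nd3 it held 20.8 to 39.9% in EZH2nHom kainate, 36.6 to 61.6% in EZH2nHom saline, 21.3 to 55.3% in WT kainate and 29.9 to 41.6% in WT saline. How the authors' counting program placed reads that match more than 1 locus is not given in the sources used here.

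Among the messenger RNAs themselves, the make-up with copies added also differed by genotype. mt-Nd1 took 6.23, 7.68, 6.11 and 6.17% of mitochondrial messenger reads in EZH2nHom kainate and 7.13, 7.31, 7.31, 7.43 and 7.31% in EZH2nHom saline, against 5.27, 5.14, 5.23, 5.38 and 5.43% in WT kainate and 5.25, 5.75, 5.39, 5.08 and 5.15% in WT saline. mt-Co3 took 16.5, 16.2, 18.6 and 17.4% in EZH2nHom kainate and 16.5, 15.4, 16.7, 15.4 and 16.2% in EZH2nHom saline, against 20.3, 21.4, 20.1, 20.2 and 20% in WT kainate and 21.5, 20.6, 21.1, 21.9 and 22.2% in WT saline. No EZH2nHom library overlapped a WT library in either share. The same held for mt-Nd4l, at 0.0978 to 0.168% in EZH2nHom kainate and 0.119 to 0.141% in EZH2nHom saline. Its share was 0.185 to 0.214% in WT kainate and 0.172 to 0.223% in WT saline. The shares of all other messenger RNAs overlapped between the genotypes. mt-Co1, the largest, took 42.1 ± 1.19% in EZH2nHom kainate, 42.5 ± 0.428% in EZH2nHom saline, 40.8 ± 1.06% in WT kainate and 40.5 ± 0.97% in WT saline (SD). These shares need no scaling between libraries, and they carry no test.

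After kainate, some mitochondrial transcripts also passed between EZH2nHom and WT mice, and none of these calls held when only the 2 groups compared were fitted. As counted, 3 of the 15 transcripts were higher and 3 lower, where 4.56% of all genes tested were higher and 3.04% lower. In the fit of only these groups, 0 of the 15 and 4 genes in all passed. Leaving out replicate 2 of WT kainate left 2 of the 6 calls, and leaving out replicate 5 of WT kainate or replicate 1 or 2 of EZH2nHom kainate left 3. A replicate block by the count table's column numbers also left 2. With copies added, 4 of 13 messenger RNAs were higher and 0 lower, with a median of 0.36 and 7.59% of genes passing in either direction. That number was 1 without replicate 2, 3 or 4 of WT kainate or replicate 1 or 2 of EZH2nHom kainate, and 7 without replicate 3 of EZH2nHom kainate.

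mt-Nd1 was at 2498 to 4203 CPM in EZH2nHom kainate and 1788 to 2221 CPM in WT kainate, without overlap (0.64 ± 0.13, adjusted p = 0.00879). mt-Cytb, at 2466 to 3018 CPM in EZH2nHom kainate and 1885 to 2370 CPM in WT kainate, did not overlap (0.36 ± 0.10, adjusted p = 0.035). mt-Nd2, at 630.6 to 816.2 CPM in EZH2nHom kainate and 471.9 to 702.4 CPM in WT kainate, did (0.43 ± 0.12, adjusted p = 0.0392). As after saline, mt-Co2 (-1.68 ± 0.47, adjusted p = 0.0367) and mt-Atp6 (-0.99 ± 0.15, adjusted p = 0.00142) were lower as counted and of the opposite sign with copies added. mt-Co2 then passed (0.39 ± 0.11, adjusted p = 0.0382) and mt-Atp6 did not (0.39 ± 0.12, adjusted p = 0.0554). The genotype comparisons after saline and after kainate share no library, and whether the genotype effects differ between them is the difference of responses tested above, which passed for no transcript. Red blood cell markers were lower for 6 of 7 in this comparison (median -2.05), with a summed level of 103 to 435 CPM in EZH2nHom kainate and 553 to 1980 CPM in WT kainate. The same markers were higher for 6 of 7 in WT kainate against WT saline. In EZH2nHom kainate against EZH2nHom saline 0 of 7 passed, as between the genotypes after saline. General neuron and astrocyte markers were lower for 1 of 14 and 1 of 10, and 0 passed among hippocampal neuron, microglial, oligodendrocyte, choroid plexus and leukocyte markers. The part of these in the mitochondrial levels was not tested.

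The ribosomal RNAs of the small and large mitochondrial subunits, mt-Rnr1 and mt-Rnr2, did not follow the messenger RNAs. mt-Rnr1 had 4210, 4475, 3645 and 4339 CPM in EZH2nHom kainate and 3143, 5044, 3913, 4045 and 3596 CPM in EZH2nHom saline. It had 7877, 5953, 4459, 5712 and 6565 CPM in WT kainate and 7393, 6895, 6853, 5633 and 5481 CPM in WT saline. It was lower in EZH2nHom than in WT after saline (-0.71 ± 0.14, adjusted p = 0.00215) and after kainate (-0.55 ± 0.15, adjusted p = 0.0307). With the structural RNA share as a covariate neither passed (adjusted p of 0.144 and 0.0662). mt-Rnr2 did not pass after saline (-0.28 ± 0.11, adjusted p = 0.116) or after kainate (-0.25 ± 0.12, adjusted p = 0.208). Reads on mt-Rnr1 per 100 reads on mt-Rnr2 numbered 10 ± 0.947 in EZH2nHom kainate, 8.7 ± 1.26 in EZH2nHom saline, 12.2 ± 0.983 in WT kainate and 11.7 ± 0.908 in WT saline (SD). These libraries were depleted of ribosomal RNA, so the values are what depletion left, and the part of unequal depletion in the genotype difference was not tested.

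The transfer RNAs were almost unread. mt-Tm, the initiator and elongator methionine transfer RNA of the mitochondrion, had 3 reads in all in EZH2nHom kainate, 1 in EZH2nHom saline, 3 in WT kainate and 5 in WT saline. The other three members, mt-Tl1, mt-Tn and mt-Ts1, had 1, 1 and 2 reads over all 19 libraries. At 0 to 3 reads per library, no difference in transfer RNAs was detectable in these libraries. Why so few reads fell on them was not tested. The sequence of mt-Tm, at chrM:3845-3913 on the plus strand, shows the short length, 69 bases, that these genes have.

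mt-Tm: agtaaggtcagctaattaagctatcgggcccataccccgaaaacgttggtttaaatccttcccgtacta

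mt-Nd6, the light-strand messenger RNA, was not called in any comparison, and 1 library in each WT group held far more of it than the others. It had 38.85, 54.56, 43.97 and 50.39 CPM in EZH2nHom kainate and 63.97, 54.85, 60.71, 50.16 and 57.63 CPM in EZH2nHom saline. It had 31.83, 30.58, 31.78, 25.58 and 106.6 CPM in WT kainate and 41.05, 37.07, 28.7, 141.9 and 24.31 CPM in WT saline. Replicate 5 of WT kainate and replicate 4 of WT saline stood far above the rest of their groups. mt-Nd6 overlaps mt-Nd5 by 14 bases on the opposite strand, and whether the counting used strand is not given in the sources used here. Reads of the 2 strands may therefore not be told apart in that stretch. Since each strand is transcribed as a long precursor, the same holds for the rest of mt-Nd6. Its CPM may thus include reads of the opposite strand. mt-Atp8 and mt-Atp6 overlap by 43 bases and mt-Nd4l and mt-Nd4 by 7 on the same strand.

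Nuclear genes whose products act on mitochondrial RNA and DNA were counted from lists. These counts are to be read against the share of all genes called: 14.3% higher and 11.8% lower in EZH2nHom kainate against EZH2nHom saline, 9.47% and 2.57% in WT kainate against WT saline, 8.33% and 5.16% in EZH2nHom saline against WT saline, and 4.56% and 3.04% in EZH2nHom kainate against WT kainate. Of 24 genes of mitochondrial transcription and DNA maintenance, 2 were higher and 4 lower in EZH2nHom kainate against EZH2nHom saline (median -0.06). These included the nuclease Dna2 (1.78 ± 0.35, adjusted p = 0.00116), the ribonucleotide reductase subunit Rrm2b (-0.50 ± 0.13, adjusted p = 0.00848) and the topoisomerase Top3a (0.41 ± 0.12, adjusted p = 0.0169). Dna2 was also the 1 gene of that list called in WT kainate against WT saline (1.44 ± 0.34, adjusted p = 0.00866). Between EZH2nHom saline and WT saline, 3 were higher and 0 lower in EZH2nHom (median 0.06), among them the transcription factor Tfb2m (0.31 ± 0.10, adjusted p = 0.0375) and the single-stranded DNA binding protein Ssbp1 (0.33 ± 0.10, adjusted p = 0.044). Between EZH2nHom kainate and WT kainate, 0 of the 24 passed in edgeR.

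Of 22 genes of mitochondrial RNA processing and stability, 6 were lower and 0 higher in EZH2nHom kainate against EZH2nHom saline (median -0.07), where 11.8% of all genes were lower, 4 of them being Ptcd3 (-0.35 ± 0.08, adjusted p = 0.00418), Fastkd5 (-0.54 ± 0.13, adjusted p = 0.00574), Fastkd2 (-0.38 ± 0.09, adjusted p = 0.00606) and Fastkd1 (-0.37 ± 0.10, adjusted p = 0.00994). The Fastkd proteins bind and process mitochondrial RNA. In WT kainate against WT saline 0 of 22 passed. After saline 5 of 22 were higher in EZH2nHom than in WT and 0 lower (median 0.14), where 8.33% of all genes were higher. Among them were Rexo2, an oligoribonuclease, at 40.1 CPM in EZH2nHom saline and 26.7 CPM in WT saline (0.59 ± 0.08, adjusted p = 5.4e-05), and Pnpt1, the mitochondrial polynucleotide phosphorylase, at 27.2 CPM in EZH2nHom saline and 17.7 CPM in WT saline (0.62 ± 0.10, adjusted p = 0.000592). The helicase of the mitochondrial degradosome, Supv3l1, was higher by 0.30 ± 0.07 (adjusted p = 0.00831). After kainate 4 of 22 were higher and 0 lower, Pnpt1 (0.79 ± 0.11, adjusted p = 0.000912) and Rexo2 (0.41 ± 0.08, adjusted p = 0.00578) again among them.

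Of 20 genes of mitochondrial tRNA maturation, 3 were higher and 0 lower in EZH2nHom saline against WT saline, where 8.33% of all genes were higher: Trnt1, which adds the CCA end (0.42 ± 0.08, adjusted p = 0.00213), Thg1l (0.56 ± 0.12, adjusted p = 0.00282) and Osgepl1 (0.48 ± 0.10, adjusted p = 0.00352). After kainate 2 were higher and 0 lower in EZH2nHom against WT. The kainate response gave 1 higher and 2 lower in EZH2nHom mice and 0 passed in WT mice. Of 15 regulators of mitochondrial biogenesis, 2 were higher in EZH2nHom kainate than in EZH2nHom saline, close to the 14.3% of all genes that were higher. These were Perm1 (1.14 ± 0.40, adjusted p = 0.0419) and Ppard (0.59 ± 0.21, adjusted p = 0.0454). Perm1 was low, at 1.3 CPM in EZH2nHom kainate and 0.59 CPM in EZH2nHom saline. None of the 15 passed between WT kainate and WT saline. After saline Gabpa was higher in EZH2nHom than in WT (0.40 ± 0.11, adjusted p = 0.0225) and the deacetylase Sirt3 lower (-0.46 ± 0.12, adjusted p = 0.011).

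The nuclear partners of the same enzyme complexes moved in both directions. Of 46 nuclear subunits of oxidative phosphorylation tested, 11 were higher and 10 lower in EZH2nHom saline against WT saline, with a median of 0, while the mitochondrial messenger RNAs with copies had one of 0.74. Cox6c of complex IV was at 327 CPM in EZH2nHom saline and 172 CPM in WT saline (0.93 ± 0.10, adjusted p = 6.88e-06), and Ndufa2 of complex I was at 20.5 CPM in EZH2nHom saline and 32.5 CPM in WT saline (-0.67 ± 0.10, adjusted p = 0.000192). After kainate 3 were higher and 6 lower in EZH2nHom against WT (median 0.06), with Cox5b lower (-0.64 ± 0.10, adjusted p = 0.00138) and Cox6c higher (0.59 ± 0.10, adjusted p = 0.00341). Among EZH2nHom mice 3 were higher and 4 lower after kainate than after saline (median -0.05), among them Cox6c (-0.49 ± 0.10, adjusted p = 0.00199), Atp5h (-0.41 ± 0.07, adjusted p = 0.000433) and Sdhd (0.42 ± 0.11, adjusted p = 0.00806). In WT kainate against WT saline 0 of 46 passed.

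Of 22 genes taken as markers of mitochondrial mass, 7 were higher and 1 lower in EZH2nHom saline against WT saline (median 0.15), where 8.33% of all genes were higher and 5.16% lower. The import channel subunit Timm23 was at 69.9 CPM in EZH2nHom saline and 42.7 CPM in WT saline (0.71 ± 0.12, adjusted p = 0.000496), and the outer membrane channel Vdac2 was at 180 CPM in EZH2nHom saline and 132 CPM in WT saline (0.44 ± 0.08, adjusted p = 0.00112). After kainate 5 were higher and 0 lower in EZH2nHom against WT (median 0.09). In EZH2nHom kainate against EZH2nHom saline their median was -0.06 and 0 were higher, and in WT kainate against WT saline 0 of the 22 passed. Beside the genotype comparison after saline, general neuron markers were higher for 1 of 14 and lower for 0, hippocampal neuron markers higher for 1 and lower for 1 of 11, oligodendrocyte markers higher for 2 of 10 and astrocyte markers lower for 3 of 10. Choroid plexus markers, which are found where that tissue is taken along, passed for 0 of 12, and their summed level ran from 45 to 3950 CPM in EZH2nHom saline and from 24.4 to 4170 CPM in WT saline.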

How the data were processed

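Libraries were made from total hippocampal RNA after removal of ribosomal RNA, the mitochondrial kind included, per the labels' protocols. The authors deposited raw read counts by Ensembl gene ID for 19 libraries, which were used unchanged. The submitters' processing notes name mm39, DESeq2 and DESeq. The aligner, counting program, strand setting, read length and treatment of reads with several matches are not given in the sources used here. The authors' second table served for gene symbols only. The members and lists were chosen with earlier results of these data known.

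The main test used edgeR 4.0.16 and limma 3.58.1 under R 4.3.3, the alternative test DESeq2 1.42.0, and the sequence search Python 3.11.15. Genes kept by filterByExpr (19234) were scaled by TMM and fitted in 1 robust quasi-likelihood model of 4 group means over all 19 libraries. Tests were two-sided, adjusted by Benjamini-Hochberg over all genes, with a threshold of 0.05. The method was tested on simulated data. Replicates are separate libraries, and the labels do not state that each is a separate animal, so p-values measure the spread between libraries. No 2 libraries agreed within sampling noise. A copy was a nuclear gene model sharing at least 100 words of 50 bases with a member, among GENCODE M21 transcripts only. The genes named are the members that passed, up to 4 others per comparison by smallest p, and up to 4 genes per list by smallest p among those that passed. Fitted changes of members with few reads carry larger SE, and counting error is small beside library spread for the 15 tested.

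Once group means were removed, WT kainate and WT saline libraries with the same number correlated in every one of 5 pairs (r of 0.192 to 0.506). The labels state no pairing, and the sample code prefixes differ within most of these pairs. Same-number libraries of EZH2nHom saline and WT saline, which share no prefix, reached r of 0.578. The best match was the library of the same number for 4 of 5 WT pairs, and for 2 of 5 pairs between the saline groups. These values neither show nor exclude that the numbers pair the WT libraries. A replicate block left 0 members called there, as without it. Alternatives were DESeq2 size factors, the DESeq2 test, no filter and a stricter filter (1 CPM in 4 libraries), scaling without mitochondrial transcripts, a threshold of 0.01, the replicate block (by title and by column numbers), a fit of only the compared groups, covariates from structural RNA and Y-linked reads, the 6 WT libraries with shared sample code prefixes, leaving out each library, and the copies added. One result on a listed gene is not reported here.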

Additional observations from a re-analysis of the deposited data

Results flagged for a closer look

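Single libraries stood apart in 4 of 104 sets of values tested by Dixon's gap test, where chance flags about 1 set in 20. mt-Nd6 was at 107 CPM in replicate 5 of WT kainate, where the others lay between 25.58 and 31.83 CPM. It was at 142 CPM in replicate 4 of WT saline, where the others lay between 24.31 and 41.05 CPM. mt-Nd5 was at 846 CPM in replicate 1 of WT kainate, with the others between 511.9 and 584.4 CPM. mt-Co2 as counted was at 38.4 CPM in replicate 3 of EZH2nHom saline, with the others between 4.411 and 13.43 CPM, and with its copies added no library of that group stood apart.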

How the results depend on the processing

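Adding the copies, an alternative chosen after seeing the data, was the only setting that turned the direction of a called change. In EZH2nHom saline against WT saline mt-Atp6 went to 0.77 and mt-Co2 to 0.74, and in EZH2nHom kainate against WT kainate both went to 0.39. The number of the 15 transcripts called in EZH2nHom kainate against EZH2nHom saline then became 11. The shares of messenger reads became 4.45% in EZH2nHom kainate, 5.89% in EZH2nHom saline, 3.85% in WT kainate and 4.34% in WT saline.

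In EZH2nHom kainate against EZH2nHom saline, 3066 genes passed when only the groups compared were fitted and 2815 at a threshold of 0.01. Of the messenger RNAs with copies 5 and 7 then passed. Leaving out 1 library gave 4 to 7 of the 15 transcripts, 9 to 11 of the 13 messenger RNAs with copies and 3864 to 6096 genes. In EZH2nHom saline against WT saline, 5604 genes passed with only the groups compared and 1212 at 0.01. Leaving out 1 library gave 8 to 10 transcripts, 7 to 10 messenger RNAs with copies and 1675 to 2385 genes, the lowest without replicate 3 of WT saline. In WT kainate against WT saline, 1083 genes passed at 0.01, 708 with the structural RNA covariate, 0 in the 6 libraries with shared prefixes, and 1365 to 2675 with 1 library left out. No setting called a mitochondrial transcript there, and the median of the 13 messenger RNAs with copies was -0.07, or 0.1 with the structural RNA covariate.

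In EZH2nHom kainate against WT kainate, 4 genes passed with only the groups compared, 284 at 0.01, 959 without a filter, 2214 in DESeq2 and 735 with the replicate block. Of the 15 transcripts 0 passed with only the groups compared and 2 at 0.01, and of the messenger RNAs with copies 0, 1 and, in DESeq2, 7. Leaving out 1 library gave 2 to 5 transcripts, 1 to 7 messenger RNAs with copies and 670 to 2193 genes. For the difference of responses, the replicate block gave 1 gene, DESeq2 12 and leaving out 1 library 0 to 4, and the transcripts called were 0 under each. The cause of these shifts was not tested, except that fewer libraries enter the smaller fits.

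The titles number the EZH2nHom kainate libraries 1 to 4 and the count table's columns 2 to 5, and title numbers were used. By these, libraries outside WT mice were not shown to be paired either (correlations of -0.021 to 0.164 between the EZH2nHom groups, 0.087 to 0.578 after saline and -0.12 to 0.524 after kainate). Between the EZH2nHom groups the best match had the same title number for 3 of 4 pairs. The block lost the calls of mt-Co2 (-1.53) and mt-Rnr1 (-0.50) in EZH2nHom kainate against WT kainate and no other named call. By column numbers, tried after seeing the data, the correlations were -0.114 to 0.214 between the EZH2nHom groups and -0.389 to 0.334 after kainate. Between the EZH2nHom groups the best match had the same column number for 1 of 4 pairs. The replicate block by column numbers lost mt-Atp8 in EZH2nHom kainate against EZH2nHom saline (-0.31). In EZH2nHom kainate against WT kainate it gave 200 genes, 2 of the 15 transcripts and 1 messenger RNA with copies, losing mt-Cytb, mt-Nd1, mt-Co2 and mt-Rnr1. Scaling without mitochondrial transcripts and the stricter filter kept the direction and call of all 36 results compared, with counts within 1.5 times. Among the members, only the transfer RNAs had too few reads to be tested, and the cause of this was not tested.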
